A study of Mus musculus with 8 samples.

Results

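UDP-glucuronosyltransferases (UGTs) were compared between livers lacking FXR and livers lacking both FXR and hepatocyte BCL6. The genes were taken by symbol: Ugt2b1, Ugt2b5, Ugt2b34, Ugt2b35, Ugt2b36, Ugt2b37, Ugt2b38, Ugt2a3, Ugt3a1 and Ugt3a2, 10 of the 24940 genes in the count table. All 10 were found, and all 10 were among the 12340 genes that passed the filter on low counts, Ugt2b38 only through its counts in FXRKO livers. Polyadenylated liver RNA was sequenced from 4 FXRKO and 4 BCL6LKOFXRKO males of the C57BL/6 strain, whose ages the labels do not give. Mice of both genotypes were homozygous for the Fxr (Nr1h4) deletion, which is present in the whole body, and carried floxed Bcl6, Bcl6(fl/fl). BCL6LKOFXRKO mice additionally carried Alb-Cre, a recombinase driven by the Albumin promoter, so that Bcl6 deletion, the presence of Cre and any liver disease of these animals came together and cannot be told apart. Livers with intact Fxr were not analysed here.

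UGTs sit in the membrane of the endoplasmic reticulum and join a sugar to small lipophilic molecules. Most UGT2 enzymes use UDP-glucuronic acid as the sugar donor, and their substrates include steroid hormones, bile acids and drugs. The resulting glucuronides are water soluble and leave the hepatocyte through transporters into bile or blood. The liver expresses UGT2B genes strongly, and the UGT3A enzymes are a small related family that uses other UDP-sugars. In mouse, the Ugt2b genes and Ugt2a3 lie side by side, each with its own set of exons. They differ in this from the Ugt1 locus, where alternative first exons share the same last exons.

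The 8 Ugt2 genes lay on chromosome 5 of mm10 between 86889770 and 87424203, a span of 534 kb, 7 of them on the reverse strand and Ugt2b35 on the forward strand. Ugt3a1 and Ugt3a2 lay on the forward strand of chromosome 15 between 9279829 and 9370870. Each Ugt2 transcript had 6 exons and each Ugt3a transcript 7 in GENCODE M21. Coding sequences were between 1569 and 1602 bases long. Identity between coding sequences was 71.1% to 97.0% among the Ugt2b genes, 93.2% between Ugt3a1 and Ugt3a2 and 51.1% to 53.0% between a Ugt2 gene and a Ugt3a gene. Ugt2b5, Ugt2b37 and Ugt2b38 formed the closest group, at 94.1% to 97.0%.

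The sequence separates the genes unevenly, and reads were counted only where they mapped to 1 location. The stretch of 60 coding bases in which the 8 Ugt2 genes were least alike (6 of 60 aligned bases identical in all) is shown to let the members be told apart by eye, with the bases that differ from Ugt2b1 in capitals. It covers coding bases 235 to 294 of Ugt2b1, counted from the A of the start codon.
Ugt2b1: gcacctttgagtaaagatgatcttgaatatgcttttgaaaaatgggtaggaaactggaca
Ugt2b5: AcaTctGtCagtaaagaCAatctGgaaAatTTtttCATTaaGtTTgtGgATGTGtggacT
Ugt2b34: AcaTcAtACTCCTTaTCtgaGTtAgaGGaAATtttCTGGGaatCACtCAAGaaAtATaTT
Ugt2b35: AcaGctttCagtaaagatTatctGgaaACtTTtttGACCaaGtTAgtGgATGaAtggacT
Ugt2b36: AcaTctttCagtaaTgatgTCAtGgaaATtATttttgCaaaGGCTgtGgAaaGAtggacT
Ugt2b37: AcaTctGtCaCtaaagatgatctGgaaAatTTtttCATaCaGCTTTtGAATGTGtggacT
Ugt2b38: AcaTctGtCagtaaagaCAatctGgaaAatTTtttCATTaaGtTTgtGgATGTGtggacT
Ugt2a3: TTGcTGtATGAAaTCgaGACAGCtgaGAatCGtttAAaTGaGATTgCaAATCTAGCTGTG
In this stretch Ugt2b5 and Ugt2b38 are identical, whereas Ugt2a3 differs from Ugt2b1 at 43 of 60 bases. The most alike stretch, coding bases 866 to 925 of Ugt2b1, had 46 of 60 aligned bases identical in all 8 genes.
Ugt2b1: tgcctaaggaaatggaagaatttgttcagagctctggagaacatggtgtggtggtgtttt
Ugt2b5: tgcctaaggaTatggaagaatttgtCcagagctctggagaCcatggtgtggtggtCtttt
Ugt2b34: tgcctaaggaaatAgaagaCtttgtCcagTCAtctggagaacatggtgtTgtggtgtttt
Ugt2b35: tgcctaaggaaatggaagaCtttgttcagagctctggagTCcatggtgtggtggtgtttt
Ugt2b36: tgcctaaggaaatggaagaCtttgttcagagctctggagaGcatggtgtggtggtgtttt
Ugt2b37: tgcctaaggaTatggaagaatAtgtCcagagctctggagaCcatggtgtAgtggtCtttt
Ugt2b38: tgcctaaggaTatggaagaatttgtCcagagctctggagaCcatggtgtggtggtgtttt
Ugt2a3: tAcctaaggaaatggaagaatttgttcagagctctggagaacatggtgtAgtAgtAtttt
Ugt3a1 and Ugt3a2 differed most over coding bases 239 to 298, at 16 of 60 bases, which are in capitals in Ugt3a2.
Ugt3a1: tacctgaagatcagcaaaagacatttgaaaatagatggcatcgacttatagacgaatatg
Ugt3a2: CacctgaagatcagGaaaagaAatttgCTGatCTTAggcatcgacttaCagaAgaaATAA

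How far a 100-base read can be assigned was checked against all GENCODE M21 transcripts. Of the 100-base windows of Ugt2b5, 24.7% (434 of 1759) were also found exactly in Ugt2b37 or Ugt2b38, as were 24.2% (434 of 1792) of those of Ugt2b38. The share was 1.06% for Ugt2b37, 0.595% for Ugt2a3 and 0.407% for Ugt2b34. No window of Ugt2b1, Ugt2b35, Ugt2b36, Ugt3a1 or Ugt3a2 was shared. The counts of Ugt2b5 and Ugt2b38 therefore come from the other windows of their transcripts, and levels of both are uncertain for this reason. No strand setting is named for the counting, so reads of a UGT gene and of an overlapping antisense transcript could not be told apart.

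Total counts on genes were between 7586241 and 11839503 per liver, and a floor of 3 counts was equal to between 0.272 and 0.375 CPM (CPM are counts scaled to a common library size, here with TMM factors, which correct for library composition). This floor covers counting error only. Bcl6 was 6.66-fold lower in BCL6LKOFXRKO livers, at 7.44 ± 3.24 CPM against 49.6 ± 19.4 (SD, n = 4 each), and the groups did not overlap. Nr1h4 transcripts were still counted in both genotypes, at 59.96 ± 2.46 CPM in FXRKO and 43.5 ± 3.69 CPM in BCL6LKOFXRKO livers (SD, n = 4 each). They were called lower in BCL6LKOFXRKO livers (log2 fold change -0.46, edgeR adjusted p = 0.00497), and the groups did not overlap. No liver with intact Fxr was analysed here to compare with. The hepatocyte marker Alb was at 44554 CPM in FXRKO and 135488 CPM in BCL6LKOFXRKO livers. Of 12 tested hepatocyte markers, 4 were called higher and 3 lower. Stellate cell markers summed to between 201 and 281 CPM in FXRKO livers and between 401 and 504 CPM in BCL6LKOFXRKO livers, with 5 of 7 called higher. Cholangiocyte markers summed to 58.4 to 85.1 against 92.1 to 156 CPM (2 of 5 tested called higher), and macrophage markers were at 335 to 463 against 415 to 747 CPM (1 of 7 called higher). Endothelial markers summed to 138 to 192 against 178 to 238 CPM, with 1 of 7 called higher, and lymphocyte markers to 2.25 to 5.05 against 5.24 to 9.08 CPM, with none tested. Markers of kidney summed to at most 1.61 CPM, and 5 of 8 were at 0 in every liver. Intestinal markers summed to 42.1 to 72.8 against 20.4 to 43.9 CPM, with Sis and Alpi at 0 and 1 of 2 tested called lower, and pancreatic markers to 15.2 to 30.6 against 8.96 to 11.4 CPM, with 4 of 8 at 0 and 1 of 2 tested called lower. The part of other cell types in the UGT results was not tested. In bulk RNA, fewer hepatocytes and less UGT RNA per hepatocyte cannot be told apart.

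Most of these UGT genes were lower in BCL6LKOFXRKO livers. Of the 9 genes other than Ugt2b38, 6 were called lower and 0 higher at an adjusted p under 0.05, by the quasi-likelihood test of edgeR with Benjamini-Hochberg adjustment over all tested genes. Ugt2b38 was called lower as well, but it entered the test only through the genotype in which it was high. Over all 12340 genes, 13.5% were called lower and 16.2% higher. The median log2 fold change of the 9 genes was -0.55, the value of Ugt2b36, against 0.01 over all tested genes. With Ugt2b38 included, at its fitted value or at its bound, the median of the 10 genes was -0.70. Among the 9 genes, only the 6 called ones had every BCL6LKOFXRKO liver below every FXRKO liver, which held for 15.2% of all tested genes. The calls and the lack of overlap rest on the same values, so the lack of overlap adds no separate support. The plot of UGT transcripts in each liver shows these values.

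**Figure D1:**
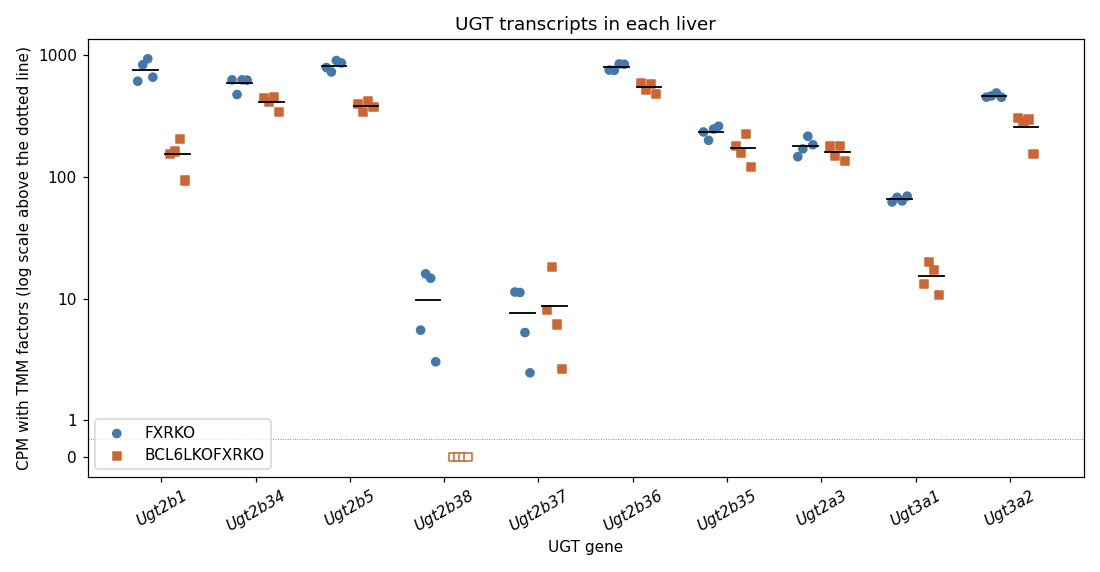
CPM of 10 UGT genes (log scale, with 0 drawn below the dotted line) in 4 FXRKO livers (circles) and 4 BCL6LKOFXRKO livers (squares), with a bar at each mean. Ugt2b1 and Ugt3a1 separate most widely among the genes counted in all livers, and Ugt2b38 is at 0 in all 4 BCL6LKOFXRKO livers.

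Ugt2b1 fell most among the genes counted in every liver. It encodes a UGT2B enzyme of steroid and xenobiotic conjugation (NM_152811, chromosome 5 from 86916639 to 86926503). Its CPM were 611, 835, 935 and 660 in FXRKO livers 1 to 4 and 154, 162, 205 and 93.4 in BCL6LKOFXRKO livers 1 to 4. The lowest FXRKO liver was well above the highest BCL6LKOFXRKO liver. The mean fell from 760 ± 151 to 154 ± 46.0 CPM (SD, n = 4 each), 4.95-fold, with a log2 fold change of -2.31 ± 0.22 (SE; edgeR adjusted p = 1.25e-05). Ugt2b34 (NM_153598, chromosome 5 from 86889770 to 86906937) is its neighbour and closest relative by coding sequence, at 75.0% identity. It was at 628, 475, 627 and 624 CPM in FXRKO livers and at 448, 414, 452 and 344 CPM in BCL6LKOFXRKO livers. All FXRKO livers were above all BCL6LKOFXRKO livers, but liver 2 of FXRKO stood close to the other genotype. The log2 fold change was -0.51 ± 0.13 (SE; edgeR adjusted p = 0.0129), a 1.42-fold difference. Without FXRKO liver 2 it was -0.60.

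Among the closest Ugt2b relatives, Ugt2b5 was lower, Ugt2b38 was no longer counted and Ugt2b37 did not separate the genotypes. Ugt2b5 (NM_009467, chromosome 5 from 87124947 to 87140340) had the highest level per kb of transcript in FXRKO livers. It was at 792, 729, 904 and 864 CPM in FXRKO livers and 399, 340, 424 and 377 CPM in BCL6LKOFXRKO livers. The groups did not overlap, and both were tight, with a coefficient of variation of 9.46% and 9.22%. Its log2 fold change was -1.09 ± 0.12 (SE; edgeR adjusted p = 2.54e-05), or 2.14-fold.

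Ugt2b38 (NM_133894, chromosome 5 from 87409940 to 87424203) had 53, 128, 137 and 32 counts in FXRKO livers, or 5.52, 16.0, 14.7 and 3.03 CPM, and 0 counts in each BCL6LKOFXRKO liver. FXRKO livers 2 and 3 were high and livers 1 and 4 low. Against the floor of 3 counts per library, its mean was at least 31.9-fold lower in BCL6LKOFXRKO livers. This bound is for the mean, and single FXRKO livers ranged from 3.03 to 16.0 CPM, so it is smaller for the lowest of them. No p-value is given, since the gene passed the filter on low counts only through its FXRKO counts. The same 4 livers had between 2803 and 4351 counts of Ugt2b5, with which Ugt2b38 shares windows. In FXRKO livers Ugt2b38 had between 3.50 and 21.9 counts for every 1000 of Ugt2b5.

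Ugt2b37 (NM_053215, chromosome 5 from 87240492 to 87254788) was also sparse. It was at 11.3, 11.2, 5.27 and 2.46 CPM in FXRKO livers and 8.06, 18.2, 6.14 and 2.63 CPM in BCL6LKOFXRKO livers. The genotypes overlapped, with the highest value in BCL6LKOFXRKO liver 2, and the coefficients of variation were 58.6% and 76.3%. Its log2 fold change of 0.20 had a 95% confidence interval from -1.31 to 1.70 (adjusted p = 0.85 from edgeR), so these livers did not fix its direction. It turned to -0.11 without FXRKO liver 4 and to -0.43 without BCL6LKOFXRKO liver 2.

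These 3 genes also share promoter sequence. The last 100 bases before the RefSeq start site are shown (GRCm38.p6, the mm10 assembly, reverse strand), with the longest run found in all 3 promoters in capitals. The windows are chr5:87140341-87140440 for Ugt2b5, chr5:87254789-87254888 for Ugt2b37 and chr5:87424204-87424303 for Ugt2b38.
Ugt2b5: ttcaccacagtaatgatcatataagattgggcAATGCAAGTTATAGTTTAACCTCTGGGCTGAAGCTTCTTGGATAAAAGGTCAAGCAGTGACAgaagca
Ugt2b37: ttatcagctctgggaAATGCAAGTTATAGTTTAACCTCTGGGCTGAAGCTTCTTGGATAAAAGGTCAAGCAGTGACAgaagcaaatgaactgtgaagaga
Ugt2b38: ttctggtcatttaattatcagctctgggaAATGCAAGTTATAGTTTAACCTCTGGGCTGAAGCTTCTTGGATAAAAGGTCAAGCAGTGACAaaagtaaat
The run was 62 bases long, began 68, 85 and 71 bases before the start sites of Ugt2b5, Ugt2b37 and Ugt2b38, and was found in 3 of 32851 RefSeq promoter windows. None of the other 6 members with a promoter sequence held the whole run, but the promoter of Ugt2b36 held its last part (gataaaaggtcaagcagtgaca). Partial matches in other promoters were not counted, so the sequence is not shown to be particular to these 3 genes. Levels of the 3 genes nonetheless differed widely: in FXRKO livers Ugt2b5 was at 436 CPM per kb, Ugt2b38 at 5.21 and Ugt2b37 at 4.05.

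Ugt2b36 and Ugt2b35, at 88.5% coding identity, were a closely related pair with small differences between the genotypes. By this identity Ugt2b5 was almost as close, at 88.4% to Ugt2b36 and 87.8% to Ugt2b35. Ugt2b36 (NM_001029867, chromosome 5 from 87065927 to 87092555) had values of 756, 751, 849 and 843 CPM in FXRKO livers and 596, 520, 585 and 483 CPM in BCL6LKOFXRKO livers. The groups did not overlap, and the log2 fold change was -0.55 ± 0.12 (SE; edgeR adjusted p = 0.00349). Ugt2b35 (NM_172881, chromosome 5 from 87000860 to 87013274) had values of 234, 200, 247 and 261 CPM in FXRKO livers and 181, 159, 226 and 120 CPM in BCL6LKOFXRKO livers. BCL6LKOFXRKO liver 3 lay within the FXRKO range. The log2 fold change of -0.46 ± 0.17 (SE) missed the threshold (edgeR adjusted p = 0.0572), and its 95% confidence interval was -0.82 to -0.09. It passed under 5 of 15 alternatives, with adjusted p-values between 0.0123 and 0.135 over all 15.

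Ugt2a3 (NM_028094, chromosome 5 from 87324972 to 87337195), whose human counterpart conjugates bile acids, was at 147, 170, 216 and 184 CPM in FXRKO livers and 178, 148, 180 and 134 CPM in BCL6LKOFXRKO livers. The genotypes overlapped, with the highest value in an FXRKO liver and the lowest in a BCL6LKOFXRKO liver. A difference was not called (log2 fold change -0.16, 95% confidence interval -0.47 to 0.14, adjusted p = 0.413 from edgeR).

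Both Ugt3a genes were called lower. Ugt3a1 (NM_207216, chromosome 15 from 9279829 to 9315036), whose human counterpart uses UDP-N-acetylglucosamine, was at 62.3, 68.0, 63.5 and 69.5 CPM in FXRKO livers and 13.1, 20.1, 17.3 and 10.7 CPM in BCL6LKOFXRKO livers. FXRKO livers were nearly alike, with a coefficient of variation of 5.26%, and all lay far above the other genotype. The mean was 4.30-fold lower, with a log2 fold change of -2.11 ± 0.17 (SE; edgeR adjusted p = 1.57e-06). Ugt3a2 (NM_144845, chromosome 15 from 9335598 to 9370870) had values of 452, 463, 489 and 451 CPM in FXRKO livers and 304, 280, 296 and 154 CPM in BCL6LKOFXRKO livers. Liver 4 was well below the other BCL6LKOFXRKO livers. The log2 fold change was -0.84 ± 0.18 (SE; edgeR adjusted p = 0.0038), and -0.66 without that liver. BCL6LKOFXRKO liver 4 had the lowest value of its group in 8 of the 10 genes, the exceptions being Ugt2b5 and Ugt2b38. Without BCL6LKOFXRKO liver 4, the 6 genes were still called lower, and the plot of fold changes shows the ranges over the alternatives.

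**Figure D2:**
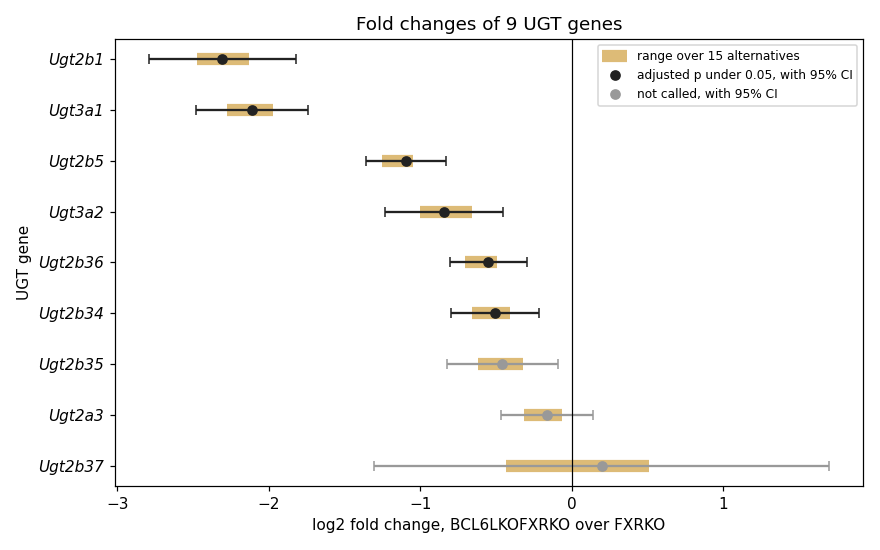
log2 fold changes of 9 UGT genes, BCL6LKOFXRKO over FXRKO, with 95% confidence intervals from edgeR (black, called; grey, not called) and the range over 15 alternatives as bands. Ugt2b1 at -2.31 and Ugt3a1 at -2.11 lie apart from the other genes, and the intervals of Ugt2b37 and Ugt2a3 span 0. Ugt2b38 is left out because its fold is only a bound.

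Summed per kb of transcript, the UGT genes were lower in every BCL6LKOFXRKO liver. The sum was 1653, 1668, 1945 and 1778 CPM per kb in FXRKO livers and 1024, 921, 1065 and 783 CPM per kb in BCL6LKOFXRKO livers, a mean of 1761 ± 135 against 948 ± 126 (SD, n = 4 each). The 10 genes took 0.390% to 0.462% of all counts in FXRKO livers and 0.160% to 0.235% in BCL6LKOFXRKO livers. In FXRKO livers the order of mean levels per kb was Ugt2b5 (436 CPM per kb), Ugt2b36 (425), Ugt2b1 (300), Ugt3a2 (212), Ugt2b34 (194), Ugt2a3 (84.9), Ugt2b35 (70.3), Ugt3a1 (29.4), Ugt2b38 (5.21) and Ugt2b37 (4.05). The ranges of Ugt2b5 and Ugt2b36, of Ugt3a2 and Ugt2b34, of Ugt2a3 and Ugt2b35, and of Ugt2b38 and Ugt2b37 overlapped, so these neighbours in the order did not separate. In BCL6LKOFXRKO livers the order was Ugt2b36 (290 CPM per kb), Ugt2b5 (204), Ugt2b34 (136), Ugt3a2 (118), Ugt2a3 (75.9), Ugt2b1 (60.6), Ugt2b35 (51.2), Ugt3a1 (6.84), Ugt2b37 (4.68) and Ugt2b38 (0). Here each neighbouring pair from Ugt2b34 down to Ugt2b35 overlapped, as did Ugt3a1 and Ugt2b37.

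The composition of the summed level differed between the genotypes. Ugt2b1 moved from rank 3 to rank 6, and its share of the summed level fell from 16.97% (14.6% to 19.7%) to 6.29% (4.70% to 7.60%). Ugt2b36 took 24.2% in FXRKO livers and 30.7% in BCL6LKOFXRKO livers, and Ugt2a3 took 4.80% and 8.0%, with no overlap between genotypes for either. Ugt2b34 likewise took 9.37% to 12.5% in FXRKO livers and 14.0% to 14.8% in BCL6LKOFXRKO livers. Ugt2b5 took 24.8% and 21.7%, and Ugt3a1 took 1.68% and 0.72%. Ugt3a2 kept nearly the same share, 12.1% and 12.3%. Since shares of a sum move together, they are given as a description with no test. In the plot of summed levels the bars show both the lower total and the smaller part of Ugt2b1.

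**Figure D3:**
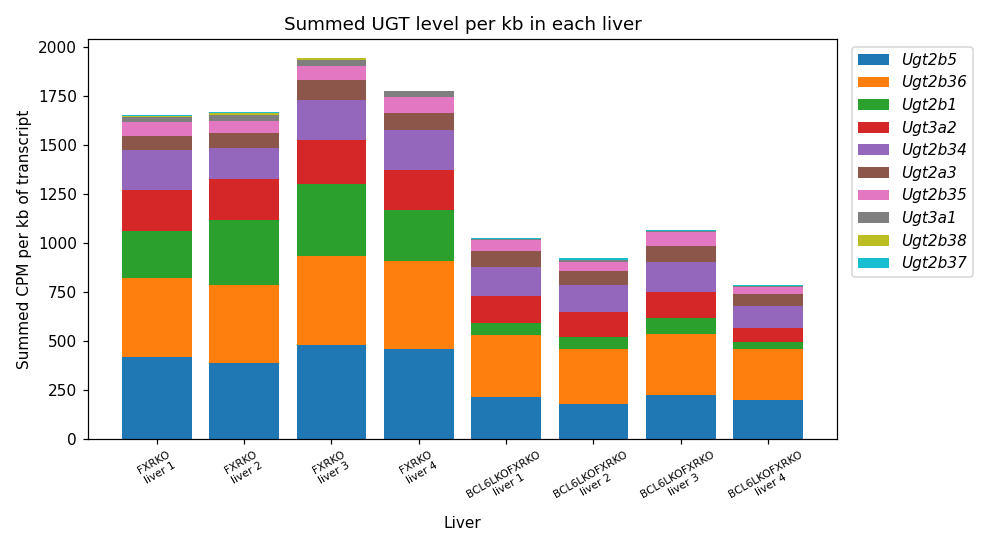
Summed CPM per kb of transcript of 10 UGT genes in each of 8 livers, with each gene's part in its own colour. The 4 FXRKO bars reach 1653 to 1945 and the 4 BCL6LKOFXRKO bars 783 to 1065, and the part of Ugt2b1 is smaller in the latter.

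Related genes were then compared within each liver, each over its closest relative by coding sequence, which does not depend on scaling between libraries. Of the 6 such pairs, 5 had counts in every liver and were tested by a two-sided exact permutation test over the 70 orderings of the livers, whose smallest possible p is 0.0286. The ratio of Ugt2b1 to Ugt2b34 was 1.54 in FXRKO livers and 0.43 in BCL6LKOFXRKO livers. In log2 units it was 0.62 ± 0.40 against -1.22 ± 0.31 (SD, n = 4 each), with an exact p of 0.0286 and an adjusted p of 0.0476 over the 5 pairs. Per kb of transcript, Ugt2b1 was above its neighbour in every FXRKO liver and below it in every BCL6LKOFXRKO liver, while in CPM not divided by length it was also below it in FXRKO liver 1 (611 against 628 CPM). For Ugt3a1 over Ugt3a2 the ratio was 0.139 and 0.0582, and the log2 ratio was -2.85 ± 0.11 against -4.10 ± 0.34 (SD, n = 4 each; exact p = 0.0286, adjusted p = 0.0476). Ugt3a1 therefore fell more than Ugt3a2, although their coding sequences are 93.2% identical. Ugt2a3 over Ugt2b1 moved from -1.81 ± 0.19 to 0.37 ± 0.33 on the log2 scale (SD, n = 4 each; exact p = 0.0286, adjusted p = 0.0476), and shares Ugt2b1 with the first pair. Each pair that passed was at the smallest possible p, so each adjusted p depends on the others passing as well. These comparisons were chosen with earlier results of these data known, so they are no independent support. The ratio of Ugt2b35 to Ugt2b36 was 0.165 and 0.173, and its log2 difference of 0.07 did not pass (exact p = 0.743). That of Ugt2b37 to Ugt2b5 ranged widely in both genotypes, with a log2 difference of 1.22 (exact permutation p = 0.171). These ratios are drawn in the plot of related UGT genes.

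**Figure D4:**
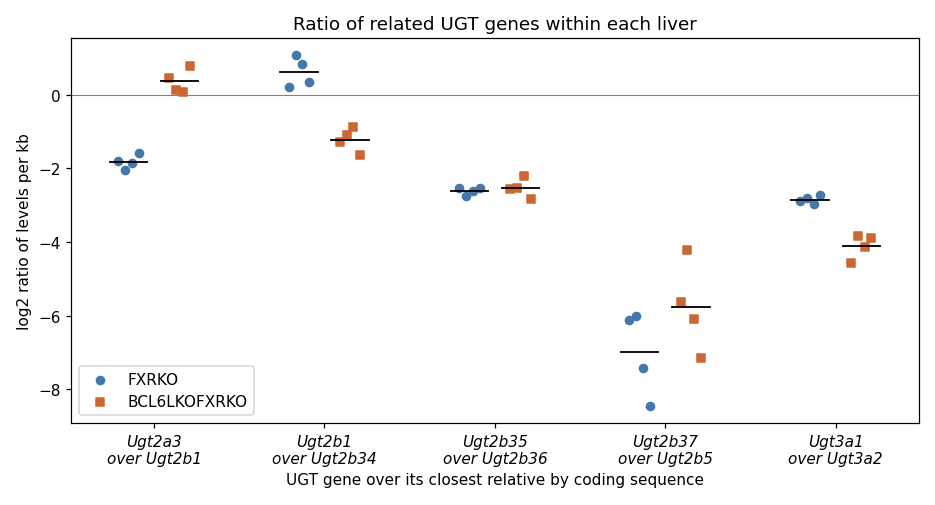
log2 ratio of levels per kb of each UGT gene over its closest relative in 4 FXRKO livers (circles) and 4 BCL6LKOFXRKO livers (squares), with bars at the means. The genotypes separate for Ugt2a3 over Ugt2b1, Ugt2b1 over Ugt2b34 and Ugt3a1 over Ugt3a2, and overlap for the other pairs.

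Promoters of 250 bases before the RefSeq start site (GRCm38.p6) were available for 9 members, the exception being Ugt3a2. Their GC content was low, between 30.4% and 44.0% with a median of 33.6%, against a median of 52.4% over 32851 promoter windows.

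Few genes flanking the UGT genes passed the filter on low counts. Within 1 Mb of the Ugt2 genes, 6 of 35 other genes were tested, of which 0 were called higher and 1 lower, and their log2 fold changes had a median of 0.24. The call was Sult1d1, a sulfotransferase, at 94.95 ± 13.4 against 41.0 ± 11.1 CPM (SD, n = 4 each; log2 fold change -1.21, adjusted p = 0.000363 from edgeR). Within 1 Mb of the Ugt3a genes 4 of 10 other genes were tested, of which 1 was called higher and 0 lower. It was Prlr, the prolactin receptor, which rose from 115 ± 20.0 to 1600 ± 215 CPM (SD, n = 4 each; log2 fold change 3.79, adjusted p = 4.88e-09 from edgeR). Both were singled out after their values were seen. Over all 12340 genes, 13.5% were called lower and 16.2% higher. With so few neighbours tested, the counts of calls are not read as a result about the neighbourhood.

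None of the other tested UGT genes was called lower. Of 12 other UGT genes listed, 11 were in the table and 8 were tested, all of the Ugt1a locus, which includes the bilirubin-conjugating Ugt1a1. Of these, 6 were called higher and 0 lower, and the median of the 8 log2 fold changes was 0.36. The Ugt1a rows count the same shared last exons, so they are not independent: 7 of them ended at the same position of chromosome 1, and the row with the fewest counts was at 1015 ± 87.1 CPM in FXRKO and 1302 ± 99.5 CPM in BCL6LKOFXRKO livers (SD, n = 4 each). Above this row, Ugt1a1 had 382 ± 38.4 and 381 ± 66.2 CPM, and Ugt1a5 had 51.9 ± 15.4 and 147 ± 22.6 CPM (SD, n = 4 each), given as a description. Rows called with the smallest adjusted p-values were Ugt1a5 (log2 fold change 0.44), Ugt1a9 (0.37) and Ugt1a7c (0.36), and none of these 3 was called when libraries were scaled by total counts alone. Under all 15 alternatives the call was lost 2 times for Ugt1a5, 8 times for Ugt1a9 and 8 times for Ugt1a7c. Ugt1a7c had only 0.28 ± 0.23 and 0.39 ± 0.27 CPM above the lowest row (SD, n = 4 each), so its call is nearly that of the lowest row. Ugt2a1 and Ugt2a2 had no count in any liver and Ugt8a at most 3 per liver.

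Of 9 tested genes listed for the supply of UDP-glucuronic acid, 2 were called higher and 3 lower. A direct role in this supply was not established here for every listed gene, among them Pgm3 and Slc35b1. Ugdh, which makes UDP-glucuronic acid from UDP-glucose, was higher at 530 ± 120 against 288 ± 53.6 CPM (SD, n = 4 each; log2 fold change 0.88), as was Hk1, a hexokinase (0.86). Ugp2, which makes UDP-glucose, fell from 343 ± 34.7 to 180 ± 26.7 CPM (SD, n = 4 each; log2 fold change -0.93). The phosphoglucomutase-family genes Pgm3 (-0.48) and Pgm2 (-0.35) were also lower, with the call lost under 3 and 8 of 15 alternatives. Of 10 genes that use UDP-glucuronic acid or glucuronate, 3 were called higher and 0 lower: Gusb, the lysosomal beta-glucuronidase that cleaves glucuronides (log2 fold change 0.99), Cryl1, of the glucuronate pathway (1.14), and Gulo, the last enzyme of vitamin C synthesis (0.54), whose call was lost with total counts alone.

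Transporters that export conjugates were split, with 3 called higher and 3 lower of 7 tested. Abcc4, an efflux pump of the sinusoidal membrane, rose from 6.40 ± 0.863 to 39.1 ± 12.3 CPM (SD, n = 4 each; log2 fold change 2.60), and Abcc5 (1.15) and Abcc1 (0.94) were higher. Abcc3, which carries glucuronides into blood, fell from 397 ± 19.5 to 212 ± 40.9 CPM (SD, n = 4 each; log2 fold change -0.91), and Abcg2 (-1.03) and Abcc6 (-0.61) were lower. Abcc2, the canalicular exporter of glucuronides, was at 245 ± 43.9 and 261 ± 52.4 CPM (SD, n = 4 each) and was not called.

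Of 16 tested transcriptional regulators of UGT genes, 3 were called higher and 6 lower. Foxa1 (log2 fold change -1.64), Ppara, a fatty acid receptor (-0.99), and Cebpa, a hepatocyte differentiation factor (-0.70), fell with the smallest adjusted p-values. Keap1 (0.38), Nfe2l2 (0.38) and Esr1 (1.22) were higher, but none of the 3 was called with total counts alone, and under all 15 alternatives the call was lost 3 times for Keap1, 8 times for Nfe2l2 and 9 times for Esr1. The receptor genes Nr1i3 (CAR, log2 fold change -0.64) and Rxra (-0.60) were lower, and Nr1i2 (PXR) was at 57.8 ± 9.68 and 48.0 ± 8.41 CPM (SD, n = 4 each) and was not called. Over the 5 lists the calls were 17 higher and 12 lower of 50 tested genes, against 16.2% higher and 13.5% lower over all 12340 genes. Of the 17, 6 were Ugt1a rows, which count the same shared last exons and are not independent. With total counts alone the calls over the 5 lists were 7 higher and 16 lower. The plot of UGT genes and the genes around their reaction shows the spread of each list.

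**Figure D5:**
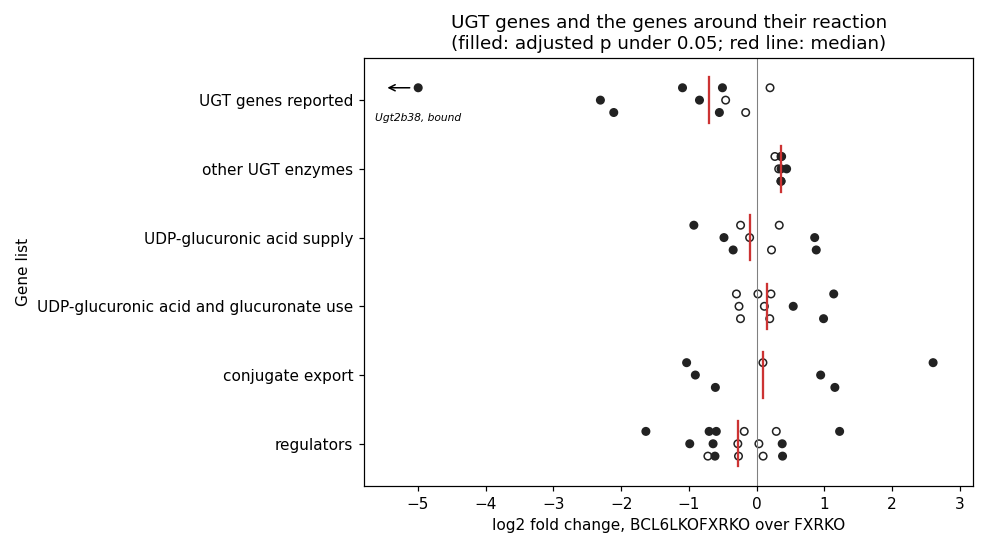
log2 fold changes, BCL6LKOFXRKO over FXRKO, of the 10 UGT genes and of 5 lists of related genes (filled, adjusted p under 0.05; open, not called; red line, list median). The median is -0.70 for the 10 genes, with Ugt2b38 drawn at its bound, and lies between -0.27 and 0.36 for the 5 lists. Ugt2b38 entered the test only through its FXRKO counts, and without it the median of the other 9 genes is -0.55.

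The genes whose levels followed Ugt2b1 most closely over the 8 livers were Il1rap, Ces3a and Slc10a1, out of 7637 genes with a mean of at least 10 CPM. Likeness was the root mean square difference of mean-centred log2 CPM, which was 0.197 for Il1rap, an interleukin receptor subunit, 0.215 for Ces3a, a carboxylesterase, and 0.261 for Slc10a1, the bile acid uptake transporter NTCP. Their log2 fold changes were -2.08, -2.33 and -2.15. Since the measure used all 8 livers, the genotype difference contributed to it.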

How the data were processed

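Liver RNA from 4 FXRKO and 4 BCL6LKOFXRKO males was sequenced as 100 bp single-end reads. Alignment to mm10 used STAR 2.5.2 and retained only reads that mapped to 1 location with up to 4 mismatches. The authors then counted exonic reads with HOMER 4.10, taking 1 transcript for each gene, and deposited these counts without normalization. The paper's methods name DESeq2. Groups were those of the sample labels. Livers were numbered within each genotype and not paired, and the labels identify separate mice.

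Counts were tested in R 4.3.3 with edgeR 4.0.16 (filterByExpr, TMM, robust quasi-likelihood test, Benjamini-Hochberg adjustment over 12340 genes). Calls required an adjusted p under 0.05. Standard errors were derived from the fold change and its F statistic. With totals of 7586241 to 11839503 counts per liver, genes near the floor of 3 counts are imprecise. No pair of livers of one genotype agreed within sampling noise (chi-square per degree of freedom 10.7 to 49.3 over 12 pairs). The method was tested on simulated data.

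Alternatives were DESeq2 1.42.0, voom of limma 3.58.1 with sample quality weights, scaling by RLE or by total counts alone, omission of the 50 most counted genes, no filter, a minimum of 10 counts per liver, and omission of each liver in turn. The 10 genes and the lists were chosen with earlier results of these data known, and so were the comparisons of related genes. Genes named from each list were up to 3 called genes per direction with the smallest adjusted p. A few others are named as chosen after their values were seen, among them Abcc2, Nr1i3, Rxra, Nr1i2 and Alb. Some results of the lists, and a search of the promoters for motifs, are not reported here. Coding sequences were taken from GENCODE M21 and aligned with Biopython 1.88, and promoters were from RefSeq (GRCm38.p6, 9 of 10 genes matched).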

Additional observations from a re-analysis of the deposited data

Results flagged for a closer look

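In 27 comparisons of a gene's 4 livers within a genotype, Dixon's criterion for an outlying sample (95% level) picked out 2, where chance picks about 5% of groups. Ugt2b34 was at 475 CPM in FXRKO liver 2 and at 624 to 628 CPM in the other 3 FXRKO livers, a gap of 0.976 of the range. Ugt3a2 was at 154 CPM in BCL6LKOFXRKO liver 4 and at 280 to 304 CPM in the other 3, a gap of 0.842 of the range. Both genes were called lower with and without the liver concerned.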

How the results depend on the processing

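Of the 9 UGT genes other than Ugt2b38, the same 6 were called lower under all 15 alternatives, and 0 were called higher. Ugt2b35 was called lower as well with DESeq2, total counts alone, the 50 most counted genes left out, no filter, or without BCL6LKOFXRKO liver 3. Ugt2b38 is left out of this count because it entered the tests only through its FXRKO counts, and requiring 10 counts in every liver removed it. Scaling by total counts alone shifted the log2 fold changes of all genes by a median of -0.16. The log2 fold change of Ugt2b37, not called under any alternative, reversed to -0.11 without FXRKO liver 4 and to -0.43 without BCL6LKOFXRKO liver 2, and ranged from -0.43 to 0.51. Of the 149 values of single UGT genes, 142 kept direction and call, but the 149 include 14 of Ugt2b38. In the 5 lists, 17 genes were called higher, 6 of them Ugt1a rows that share last exons and are not independent. The number was 7 with total counts alone, 10 without a filter, and 9 to 17 with each liver left out (9 without FXRKO liver 2, 3 or 4, 10 without BCL6LKOFXRKO liver 1 or 3, 11 without FXRKO liver 1). The cause was not tested. Without division by transcript length the share of Ugt2b5 was 20.9% in FXRKO and 18.4% in BCL6LKOFXRKO livers, against 24.8% and 21.7%. No paired analysis was made, because the genotypes share no replicate number in the labels. Some animal numbers in the titles are adjacent between the genotypes, but the labels do not say what these numbers mark. Depth limits Ugt2b37 and Ugt2b38, and near-identical sequence limits Ugt2b5 and Ugt2b38.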
